A study of Mus musculus with 32 samples.

Results

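A set of 9 mouse genes that carry the signal of glucagon receptor family agonists was described across 8 groups of liver: the receptors Gcgr and Glp1r, the transcription factors and coactivator Creb1, Creb3l3 and Crtc2, and the cAMP-responsive or feedback genes Crem, Nr4a1, Pde4b and Sik1. Members were every non-control probe that the array files name for one of these genes. This gave 18 of 55681 probes, of which 14 passed the filter on dim probes, and each of the 9 genes kept at least 1 probe among the 21691 genes tested. For a gene to be tested, a probe had to be well above background on every array of some group, and the brightest such probe stood for the gene.

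The livers came from male C57/BL6 mice. Without surgery, 1 group was fed standard diet and 1 a diet lacking methionine and choline (MCD diet), each for 3 weeks. A further group on each diet received a dual agonist of GLP1R and GCGR for 2 weeks, on the MCD diet starting after the first diet week. The labels give the dose as 4.4 mg/kg/day but also as an every-other-day schedule, and name no vehicle for the untreated mice. The remaining 4 groups repeated these 4 and were sampled 2 weeks after removal of 70% of the liver (partial hepatectomy), with diet and agonist kept up before and after surgery. Each group holds 4 livers that the labels call biological replicates, so the p-values measure the spread between those livers. The animals' age is not given in the sources used here.

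Glucagon and GLP-1 bind class B receptors that couple to Gs and adenylyl cyclase. The resulting cAMP activates protein kinase A, which phosphorylates CREB and, by restraining salt-inducible kinases, lets the coactivator CRTC2 enter the nucleus. In hepatocytes this route is best known for glucagon's induction of gluconeogenic genes in fasting, and it induces its own brakes: the ICER repressors made from Crem, cAMP phosphodiesterases, and Sik1.

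Total RNA was hybridised to 32 one-colour Agilent arrays, and between 44.4% and 69.7% of spots were well above background on an array (median 53.8%). Hepatocyte markers such as Alb, Ttr and Hnf4a were above background on every array, while the 8 adipocyte and 12 pancreatic markers were mixed. Of the former Adipoq, Plin1, Lep and Retn were so on at most 6 of the 32 arrays and Cfd on 14, but Cidec, Fabp4 and Lipe on 32. Of the latter Iapp and Pdx1 were so on 0, Pnlip on 3, Prss2, Cpa1 and Try4 on 6 each, which include all 4 of MCD diet with agonist after hepatectomy, Ins1 on 23, Cela1 on 31, and Ins2, Ctrb1, Amy2a5 and Cel on 32. There were 4 slides, each holding 2 groups: both untreated groups without surgery on the first, both agonist groups without surgery on the second, both standard-diet groups after hepatectomy on the third and both MCD groups after hepatectomy on the fourth. Agonist and slide therefore cannot be told apart before surgery, diet and slide cannot be told apart after it, and every hepatectomy comparison also crosses 2 scanners. Within each slide 1 group filled row 1 and the other row 2, so row and group cannot be told apart there. The replicate number is also the slide column. The deposited value table holds a further copy of these data, in which 16 of 32 columns matched the scanner file of another group better than their own: the columns named MCD diet and standard diet with agonist were exchanged, before and after surgery. The best matches had rank correlations of 0.954 to 0.997, against 0.868 to 0.939 with the sample's own scanner file for the exchanged columns. Groups were taken here from the scanner files. Which source carries the right label is not settled. Comparisons with MCD diet or standard diet with agonist therefore depend on this choice, before or after surgery, those of other gene lists included. The exception is the difference between the diets in the agonist's effect, which keeps its value when these groups are exchanged. Values from the table are given where they changed a member's call.

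Levels are given as the relative log2 signal, the log2 of the processed signal minus the 75th percentile of that array's log2 signals. A difference is the log2 change between group means with its standard error (SE), a change of 1 being a doubling, and a gene was called where limma's Benjamini-Hochberg adjusted p over all 21691 genes was under 0.05. Levels are compared between groups for one probe and never between genes. Scaling to each array's median in place of the 75th percentile moved the median change of all genes from -0.01 to 0.17 for the agonist on standard diet, from 0.14 to -0.20 for it on MCD diet, from -0.13 to 0.23 for diet and from 0.18 to -0.35 for the difference in the agonist's effect, all before surgery. Each call of a member named below kept its direction under median and quantile scaling.

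Few of the 9 genes were called. For the agonist before surgery, Crem rose on standard diet (1 of 9 members, where 6.52% of all genes were called) and Nr4a1 fell on MCD diet (1 of 9, against 13.3%). For the agonist after hepatectomy, 0 of 9 members were called on standard diet, where 0.00922% of all genes were, and 0 of 9 on MCD diet, where 0.406% were. At an unadjusted p under 0.05 the count was also 0 of 9 in both, against 2.57% and 13.8% of all genes.

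Between the diets before surgery, Pde4b was higher on MCD diet (1 of 9, against 26.0% of all genes), and in agonist-treated livers Crem and Nr4a1 were lower on MCD diet (2 of 9, against 15.2%). Between the diets after hepatectomy, 0 of 9 members were called without agonist, against 11.5% of all genes, and 0 of 9 with agonist, against 8.23%. Sik1 was the member with an unadjusted p under 0.05 in the former and Nr4a1 in the latter (1 of 9 each, against 25.7% and 22.5% of all genes).

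Hepatectomy was followed by lower Gcgr and Crem in agonist-treated livers on standard diet (2 of 9, against 7.30% of all genes) and lower Gcgr in agonist-treated livers on MCD diet (1 of 9, against 10.0%). In livers without agonist 0 of 9 were called on standard diet, against 13.8%, and 0 of 9 on MCD diet, against 9.46%, with 1 and 2 of 9 at an unadjusted p under 0.05, against 29.7% and 23.9% of all genes. The agonist's effect itself differed between the diets before surgery for Nr4a1 (1 of 9, against 11.1%). It differed for 0 of 9 between the diets after hepatectomy (0.00461% of all genes), for 0 of 9 before and after hepatectomy on standard diet (0.277%) and for 0 of 9 before and after it on MCD diet (1.12%), with 0, 2 and 0 of 9 at an unadjusted p under 0.05, against 4.76%, 12.6% and 16.6%. The members' shares thus lay near the background in most comparisons.

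**Figure D1:**
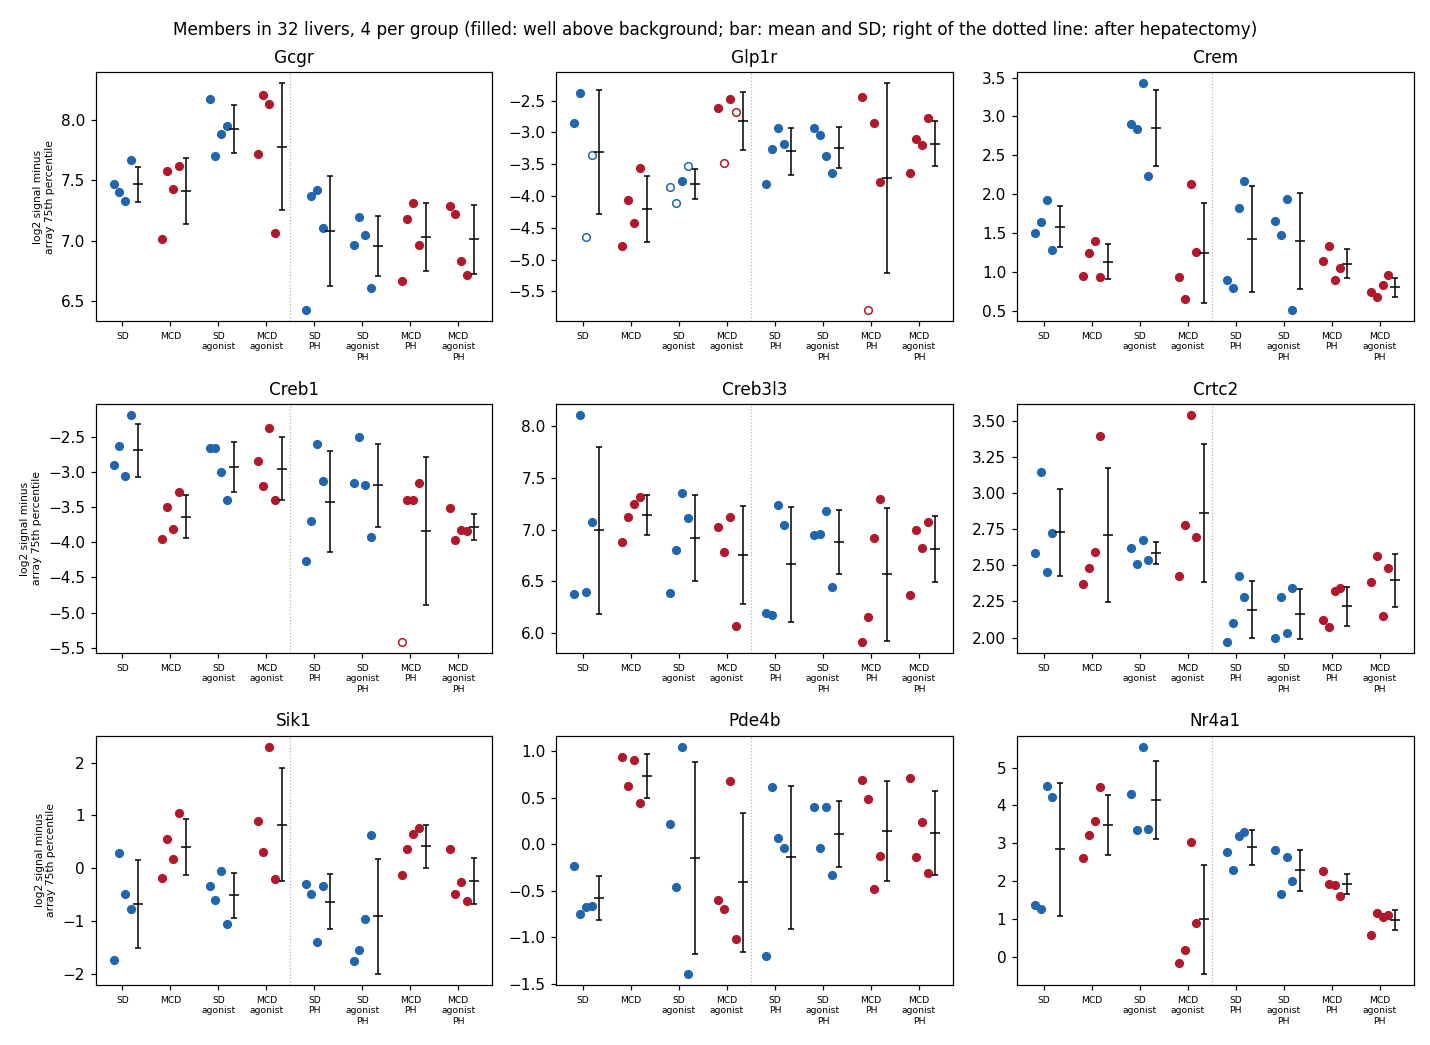
Relative log2 signal of each of the 9 genes (y axis of each panel) in the 8 groups (x axis: SD standard diet, MCD methionine- and choline-deficient diet, PH 2 weeks after hepatectomy), 1 point per liver, filled where well above background, with a bar for the mean and SD of 4 arrays. Crem stands highest on standard diet with agonist (mean 2.85), Nr4a1 is low on MCD diet with agonist (mean 0.98), and the 4 groups after hepatectomy hold the lowest Gcgr means (6.96 to 7.08).

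Gcgr encodes the glucagon receptor, which in liver sits mainly on hepatocytes. Its single probe lies at chr11:120400221-120400280 on the plus strand (mm9) and was well above background on all 32 arrays. It read 7.47, 7.40, 7.33 and 7.67 in the standard-diet livers and 8.17, 7.70, 7.88 and 7.95 in those given agonist. Every treated liver was above every untreated one, yet the change of 0.46 ± 0.24 had an adjusted p of 0.268 (limma). It was called with normexp background correction (0.98, adjusted p = 0.0395) and in the value table with placed columns (1.10, adjusted p = 0.048), where with columns as named the same value stands for diet. On MCD diet the values were 7.02, 7.57, 7.43 and 7.62 without and 7.71, 8.21, 8.13 and 7.06 with agonist. Here the treated replicate 4 lay among the untreated livers, and the change was 0.37 ± 0.24 (adjusted p = 0.319, limma).

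After hepatectomy Gcgr read 6.96, 7.20, 7.05 and 6.61 on standard diet with agonist. All 4 lay below the 4 agonist-treated livers without surgery, and Gcgr fell by 0.97 (SE 0.24, 1.96-fold, limma adjusted p = 0.0157). On MCD diet with agonist the livers after hepatectomy read 7.28, 7.22, 6.83 and 6.71, overlapping the group without surgery through its replicate 4, and Gcgr fell by 0.77 (SE 0.24, 1.70-fold, limma adjusted p = 0.0419). This second call was lost under median scaling (adjusted p = 0.178), quantile normalization (0.149), normexp background correction (0.153) and a fit of these groups alone (0.153). It was also lost without MCD diet with agonist replicate 1, 2 or 3 or its hepatectomy counterpart replicate 2, 3 or 4, at adjusted p between 0.0553 and 0.128. The standard-diet call was lost without the agonist replicate 1 before surgery (-0.89, adjusted p = 0.0505) or replicate 4 after it (-0.85, adjusted p = 0.0629).

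Without agonist, Gcgr after hepatectomy read 6.43, 7.37, 7.42 and 7.10 on standard diet and 6.67, 7.18, 7.31 and 6.96 on MCD diet, each overlapping its group without surgery. The changes were -0.39 ± 0.24 (adjusted p = 0.293) and -0.38 ± 0.24 (adjusted p = 0.356). The agonist's effect on Gcgr differed before and after surgery by -0.58 ± 0.34 on standard diet (adjusted p = 0.496) and by -0.39 ± 0.34 on MCD diet (adjusted p = 0.602), so a fall particular to agonist-treated livers was not shown. In order of their means, the groups ran from standard diet with agonist (7.93 ± 0.196, SD, n = 4) and MCD diet with agonist (7.78 ± 0.525) through standard diet (7.47 ± 0.147) and MCD diet (7.41 ± 0.273) to the 4 groups after hepatectomy. The last 4, from 7.08 to 6.96, were closer to each other than their SDs of 0.251 to 0.458.

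Glp1r encodes the GLP-1 receptor, best known from pancreatic beta cells. The array carries a pair of overlapping probes for it, at chr17:31073256-31073315 and chr17:31073261-31073320 (mm9, plus strand). They are shown because their target bases coincide over 55 positions and yet 1 passed the filter and the other did not; capitals mark the 3 bases of the shared stretch where they differ.
A_55_P2016471: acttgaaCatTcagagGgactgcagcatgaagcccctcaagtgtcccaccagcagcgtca
A_55_P2132089: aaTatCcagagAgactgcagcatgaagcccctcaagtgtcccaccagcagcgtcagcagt
Counted from the 5′ end of the second probe, with its base first, the differences are T3C, C6T and A12G, and the other 52 shared bases match.

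The first Glp1r probe was well above background on 10 of 32 arrays and was not tested. The second was so on 24 of 32: on all 4 arrays of the MCD group, of both standard-diet groups after hepatectomy and of MCD diet with agonist after hepatectomy, on 3 of MCD diet after hepatectomy, on 2 of standard diet, on 2 of MCD diet with agonist and on 1 of standard diet with agonist. Its values therefore lie close to background throughout, and this limits every statement on Glp1r.

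On MCD diet the second Glp1r probe read -4.78, -4.06, -4.42 and -3.56 without and -2.62, -3.49, -2.47 and -2.68 with agonist. The ranges did not overlap, although 2 of the 4 brighter arrays were not well above background, and the change of 1.39 ± 0.48 missed the threshold (limma adjusted p = 0.0518). It passed with normexp correction (0.63, adjusted p = 0.0353) and, as a separate setting without that correction, in a fit of these groups alone (adjusted p = 0.0307). It also passed without any 1 of 7 arrays, such as replicate 2 of MCD diet after hepatectomy (adjusted p = 0.0134). On standard diet the values were -2.86, -2.38, -4.65 and -3.36 without and -3.85, -4.11, -3.76 and -3.53 with agonist. These overlapped, with a change of -0.50 ± 0.48 (adjusted p = 0.583), and the difference between the diets in the agonist's effect was 1.89 ± 0.68 (adjusted p = 0.0675, and 0.0481 with normexp). The 4 groups after hepatectomy had means between -3.72 and -3.18, and their agonist changes were 0.05 ± 0.48 on standard diet and 0.54 ± 0.48 on MCD diet, neither called.

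**Figure D2:**
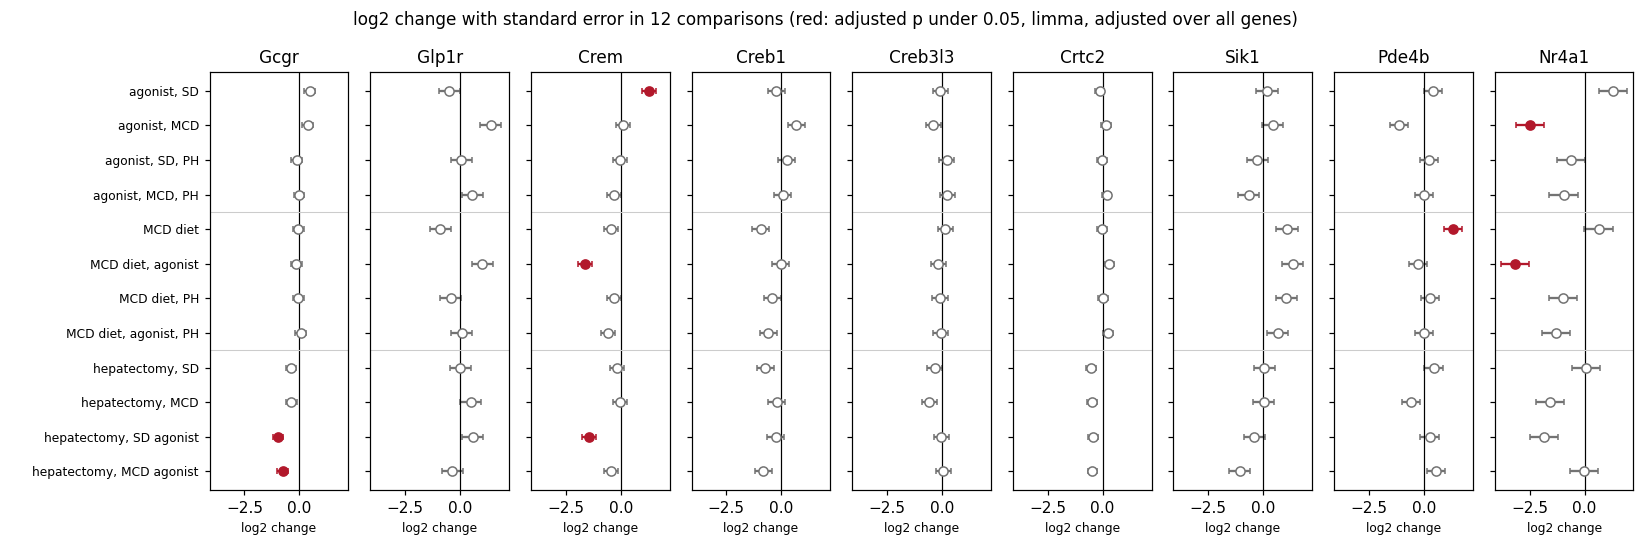
Log2 change and SE (x axis) of the 9 genes in the 12 pairwise comparisons of agonist, diet and hepatectomy, red where limma's adjusted p was under 0.05. The 8 red points belong to Crem, Nr4a1, Gcgr and Pde4b, and no member is red for the agonist after hepatectomy.

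Creb1 encodes the factor that protein kinase A phosphorylates and that binds cAMP response elements. Its brighter probe, at chr1:64651061-64651120 (mm9, plus strand), was well above background on 31 of 32 arrays. It read -2.90, -2.63, -3.06 and -2.19 on standard diet and -3.95, -3.49, -3.81 and -3.29 on MCD diet. All MCD livers lay below all standard-diet livers, but the change of -0.94 ± 0.39 was not called (limma adjusted p = 0.0705) in the fit of all arrays. It was called in a fit of these groups alone (adjusted p = 0.0277), without replicate 1 of MCD diet after hepatectomy (adjusted p = 0.0249) and in the value table with placed columns (-0.52, adjusted p = 0.0307). With columns as named the table value stands for the agonist on standard diet.

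The dimmer Creb1 probe, at chr1:64644633-64644692, gave another picture. It read -5.57, -3.18, -4.48 and -4.35 on standard diet and -2.77, -2.53, -2.78 and -2.46 on MCD diet, so that the MCD livers were the higher ones. In the fit over 30118 probes this was a difference of 1.76 ± 0.37 (adjusted p = 0.00103, where 24.8% of probes were called). Only 1 of the 4 standard-diet arrays was well above background for it, against all 4 on MCD diet, so its size is uncertain too, and over the series it was so on 21 of 32 arrays. Against MCD diet with agonist, where it was well above background on 1 of 4 arrays only, the same probe differed from MCD diet (adjusted p = 0.0054, lower with agonist) and from MCD diet with agonist after hepatectomy (adjusted p = 0.0035, higher after surgery), and the sizes of these differences are uncertain. The brighter probe changed by 0.68 ± 0.39 and by -0.83 ± 0.39 in those comparisons and was called in neither. The files name the same transcript for both probes, and no direction is given here for Creb1 as a gene.

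**Figure D3:**
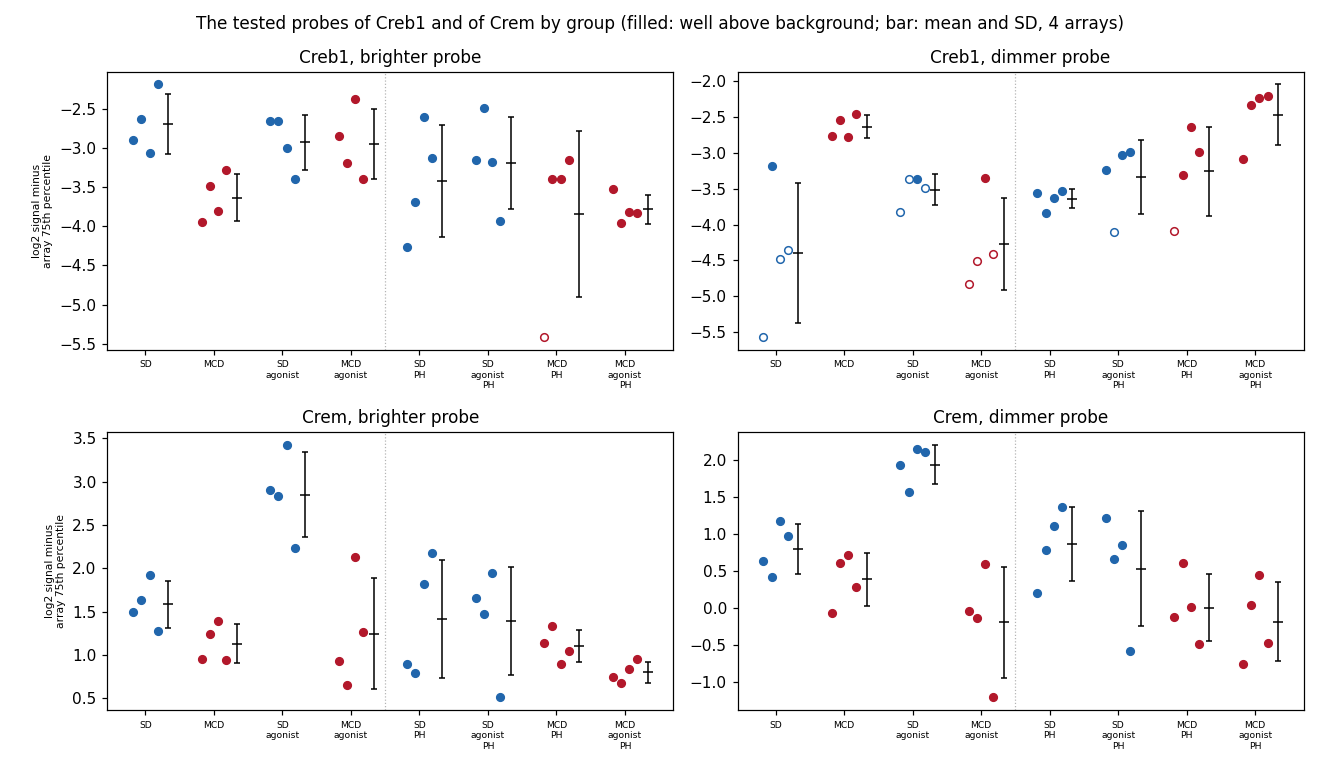
Relative log2 signal (y axis) of the brighter and dimmer tested probes of Creb1 and Crem in the 8 groups (x axis), 1 point per liver, open where not well above background, bars mean and SD of 4 arrays. The Creb1 probes run in opposite directions between standard and MCD diet (means -2.70 and -3.64 on the brighter probe), whereas both Crem probes are highest on standard diet with agonist.

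Creb3l3 encodes CREBH, a liver transcription factor anchored in the endoplasmic reticulum and released by proteolysis, and Crtc2 the coactivator that docks on CREB. The 12 pairwise changes of Creb3l3 ran from -0.58 to 0.25, none called, none at an unadjusted p under 0.05. Its arrays ran from 5.91 to 8.11. The highest was standard-diet replicate 2, which also had the largest share of spots above background (69.7%), and over the 32 arrays the level and that share had r = 0.66, against -0.11 to 0.26 for the other 8 members. The part of this share in the Creb3l3 values was not tested. With agonist on MCD diet its change was -0.39 (95% interval -1.11 to 0.32), and with normexp correction it was called there (-1.19, adjusted p = 0.0341).

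Crtc2 read 2.59, 3.15, 2.45 and 2.72 on standard diet and 1.97, 2.10, 2.42 and 2.28 after hepatectomy. The groups did not overlap, and the change was -0.54 ± 0.22 (limma adjusted p = 0.104). On MCD diet it read 2.37, 2.48, 2.59 and 3.39 before and 2.12, 2.07, 2.32 and 2.34 after surgery, again without overlap (-0.49 ± 0.22, adjusted p = 0.167). With agonist the changes were -0.42 on standard diet (adjusted p = 0.242) and -0.47 on MCD diet (adjusted p = 0.179). All 4 were below 0 on this probe and none was called. With normexp correction both changes in agonist-treated livers were called (-0.95, adjusted p = 0.00561, and -0.99, adjusted p = 0.00161). With the mean over both Crtc2 probes the change on standard diet without agonist was called (-0.75, adjusted p = 0.0349). The second probe, well above background on all 32 arrays, showed no fall on MCD diet, with means of -1.62 before and -1.58 after surgery. Its means went from -0.89 to -1.85 on standard diet. With agonist they went from -1.41 to -1.87 on standard and from -1.03 to -1.29 on MCD diet. The groups on the other side of these comparisons lay on other slides and another scanner.

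Crem encodes activators and, from an internal promoter, the ICER repressors of cAMP-responsive genes. Of its 4 probes, 2 were well above background on all 32 arrays and the others on 7 and 5, so the isoforms were not resolved. Its brighter probe read 1.50, 1.64, 1.92 and 1.27 on standard diet and 2.90, 2.84, 3.43 and 2.23 with agonist. Every treated liver lay above every untreated one, and Crem rose by 1.27 ± 0.32 (2.41-fold, limma adjusted p = 0.0187). The second probe read 0.63, 0.42, 1.18 and 0.97 without and 1.94, 1.57, 2.16 and 2.11 with agonist, also without overlap, at 1.14 ± 0.36 (adjusted p = 0.058 over the probes).

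The call of Crem for the agonist on standard diet was lost in a fit of these groups alone (adjusted p = 0.0684) and without agonist-treated replicate 1 (1.25, adjusted p = 0.0549) or replicate 3 (1.07, adjusted p = 0.078). In the deposited value table the change was -0.76 (adjusted p = 0.0898) with columns as named and 1.07 (adjusted p = 0.0495) after moving each column to its best-matching array. The direction therefore turns with the naming of the exchanged columns.

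On MCD diet Crem read 0.95, 1.24, 1.39 and 0.94 without and 0.93, 0.65, 2.13 and 1.26 with agonist. These overlapped, with a change of 0.11 ± 0.32. Among agonist-treated livers all 4 on MCD diet lay below all 4 on standard diet, and Crem was lower on MCD diet by -1.61 ± 0.32 (3.05-fold, limma adjusted p = 0.000981). Replicate 3 was the closest, at 2.13 against 2.23. The second probe gave -2.14 (adjusted p = 0.0002 over the probes), and in the value table the change was 0.12 as named (adjusted p = 0.828) and -1.71 with placed columns (adjusted p = 0.00301). The agonist's effect on Crem differed between the diets by -1.15 ± 0.45 on the brighter probe (adjusted p = 0.0948) and by -1.72 ± 0.51 on the second (adjusted p = 0.0313, where 9.99% of probes were called). For the gene it was called under median scaling (-1.68, adjusted p = 0.0236), with the mean over probes (-1.44, adjusted p = 0.0308) and without MCD diet with agonist replicate 3 (-1.45, adjusted p = 0.0363).

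After hepatectomy Crem read 1.65, 1.47, 1.94 and 0.51 on standard diet with agonist, all below the agonist-treated livers without surgery. It fell by 1.46 (SE 0.32, 2.74-fold, limma adjusted p = 0.00733), and the second probe fell by 1.41 (adjusted p = 0.019 over the probes). This comparison shares its agonist-treated livers with the comparisons above, so the 3 Crem calls rest on the same 4 arrays. Without agonist Crem read 0.90, 0.79, 1.82 and 2.17 after hepatectomy, spanning the untreated range, and the agonist groups after hepatectomy overlapped their controls on both diets. Its lowest group was MCD diet with agonist after hepatectomy, at 0.74, 0.67, 0.84 and 0.95.

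Nr4a1 encodes an orphan nuclear receptor induced within minutes by cAMP, stress and growth signals, and an immediate early gene. Its promoter is shown because Nr4a1 holds the largest called changes of the 9 genes: the 250 bases before the RefSeq start, chr15:101266596-101266845, plus strand, GRCm38.p6, with capitals at each CGTCA, which reads TGACG on the other strand and is one arm of the cAMP response element.
Nr4a1: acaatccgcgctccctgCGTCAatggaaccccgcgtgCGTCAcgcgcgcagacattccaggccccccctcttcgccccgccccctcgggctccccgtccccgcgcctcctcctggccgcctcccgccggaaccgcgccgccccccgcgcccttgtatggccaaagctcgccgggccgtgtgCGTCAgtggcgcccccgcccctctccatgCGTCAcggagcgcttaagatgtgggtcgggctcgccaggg
TGACG, searched on both strands, had 4 matches, which begin 233, 213, 69 and 40 bases before the start and do not overlap. Of 32851 RefSeq promoters of this length 17.8% held at least 1 match and 0.137% held 4 or more. Promoter entries were searched for 6 members (10 entries), and Crem, Crtc2 and Sik1 were not among them. Creb3l3 had 1 match in 1 of its 2 entries and Pde4b 1 in 1 of its 4, while those of Creb1, Gcgr and Glp1r had 0. The full element TGACGTCA was in 0 of these 10 entries, and in 1.55% of all promoters. These counts do not cover Crtc2 and Sik1, which had no promoter entry, or Crem, which was left out of the search of members.

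Nr4a1 read 2.60, 3.22, 3.60 and 4.49 on MCD diet and -0.16, 0.19, 3.03 and 0.88 with agonist. Replicate 3 of the treated livers stood apart from the other 3 and lay within the untreated range. Nr4a1 fell by 2.49 (SE 0.64, 5.63-fold, limma adjusted p = 0.0114), and the call held in all 10 alternative settings and in all 32 fits that left out 1 array. On standard diet it read 1.38, 1.26, 4.50 and 4.22 without and 4.30, 3.35, 5.55 and 3.37 with agonist. The untreated livers formed a low and a high pair, and the change of 1.30 ± 0.64 was not called (adjusted p = 0.229).

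The agonist's effect on Nr4a1 differed between the diets by -3.79 ± 0.90 (limma adjusted p = 0.0083). With the value table this test missed the threshold under either placing of the columns (-3.47, adjusted p = 0.0746). Among agonist-treated livers Nr4a1 was lower on MCD than on standard diet in every pair of livers, by -3.16 ± 0.64 (8.93-fold, adjusted p = 0.00112). These comparisons share the MCD livers with agonist. The values varied widely: the residual SD of Nr4a1 within groups, 0.969, exceeded that of 96.1% of all genes.

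After hepatectomy the Nr4a1 groups were tighter. It read 2.77, 2.31, 3.20 and 3.31 on standard diet and 2.83, 1.65, 2.62 and 2.01 with agonist, then 2.28, 1.92, 1.90 and 1.61 on MCD diet and 0.58, 1.16, 1.05 and 1.09 with agonist. On MCD diet all treated livers lay below all untreated ones and on standard diet they overlapped, and neither change was called. Against the groups without surgery the mean hardly moved on standard diet (2.84 before, 2.90 after) and on MCD diet with agonist (0.98 before, 0.97 after). The other changes were -1.55 ± 0.64 on MCD diet (limma adjusted p = 0.127, and 0.0245 in a fit of these groups alone) and -1.86 ± 0.64 on standard diet with agonist (adjusted p = 0.071). The latter was called with the replicate number as a block (adjusted p = 0.0358), with normexp (-1.77, adjusted p = 0.0354) and without MCD diet with agonist replicate 3 (adjusted p = 0.0407). Between the diets after hepatectomy the value table with placed columns called Nr4a1 lower on MCD diet, by -0.84 without agonist (adjusted p = 0.0401) and by -1.30 with it (adjusted p = 0.00603), and a fit of the groups alone called the latter (adjusted p = 0.0228). With columns as named these values stand for the agonist on standard and on MCD diet after hepatectomy.

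**Figure D4:**
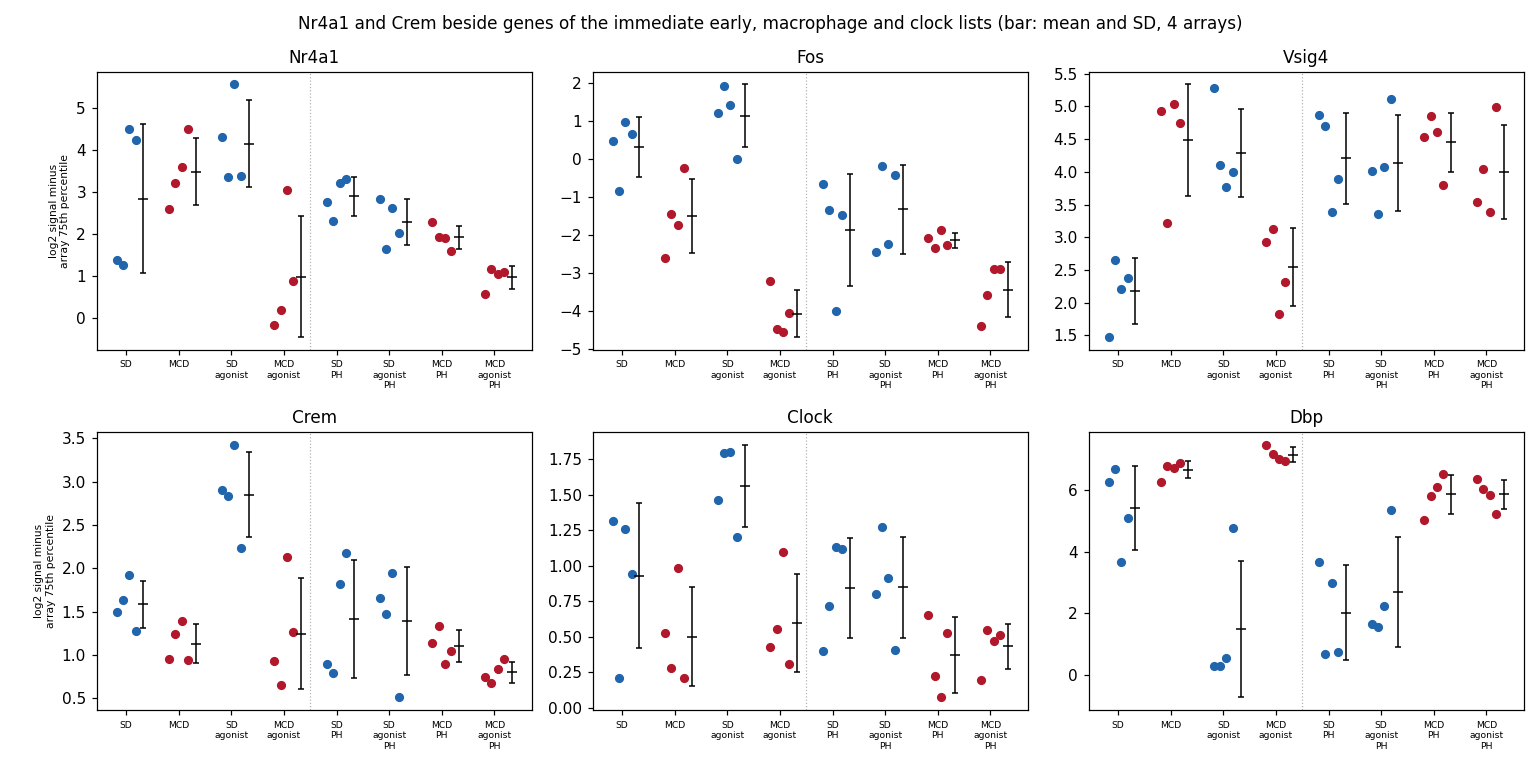
Relative log2 signal (y axis) of Nr4a1 beside Fos and Vsig4, and of Crem beside Clock and Dbp, in the 8 groups (x axis), 1 point per liver, bars mean and SD of 4 arrays. Nr4a1 and Fos are both low on MCD diet with agonist, and Dbp is at 0.28 to 0.56 in 3 of the 4 livers on standard diet with agonist, where Crem is highest.

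Other genes moved with these members, and their part in the Nr4a1 and Crem results was not tested. The directions of the counts in this and the next 2 paragraphs held under median and quantile scaling except where stated. Before surgery those counts stand against 6.52% of all genes called with agonist on standard diet and 13.3% on MCD diet. Between the diets with agonist the share was 15.2%. Of 20 immediate early genes tested, Nr4a1 not among them, 0 rose and 7 fell with agonist on MCD diet (median -0.95, against 0.14 for all genes). Fos, a subunit of AP-1, stayed below the well-above-background limit in all 4 livers on MCD diet with agonist and was at least 5.50-fold lower there than on MCD diet alone (adjusted p = 0.00689). Atf3, a stress-induced repressor, fell by 3.15 (SE 0.79, adjusted p = 0.00959), and Fosl2 and Jun fell by 1.26 and 1.48. Between the diets in agonist-treated livers 0 of 20 rose and 7 fell (median -0.56), Fos being at least 34.3-fold lower on MCD diet. On standard diet 0 rose and 1, Zfp36, fell with agonist, where median scaling gave 1 that rose and 0 that fell. Over the 32 arrays Nr4a1 and Fos had r = 0.64, and Nr4a1 and Crem r = 0.65, as descriptions over arrays that share groups and slides.

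Clock genes were called in some of the comparisons with a Crem call and in others without one. With agonist on standard diet 1 of 16 rose and 6 fell (median -0.99, against -0.01 for all genes): Arntl rose by 2.40 ± 0.64, while Nr1d1 fell by 3.69, Dbp fell by 3.95 and Hlf fell by 1.51. Dbp read 6.28, 6.70, 3.66 and 5.10 on standard diet and 0.30, 0.28, 0.56 and 4.79 with agonist, so that replicate 4 stood apart, the liver with the lowest Crem of its group. Between the diets in agonist-treated livers 11 of 16 rose and 3 fell (median 2.08). After hepatectomy on standard diet with agonist, where Crem fell, 1 rose and 1 fell, against 7.30% of all genes. Crem was not called between the diets after hepatectomy, where 7 rose and 1 fell, against 11.5%. Nor was it called after hepatectomy on standard diet, where 1 rose and 7 fell, against 13.8%. Crem had r = 0.82 with Clock and -0.63 with Dbp over the 32 arrays. The time of day of sampling is not given in the sources used here.

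Macrophage markers also moved. With agonist 6 of 12 rose and 0 fell on standard diet (median 1.53), and 0 rose and 5 fell on MCD diet (median -1.28); Vsig4, a Kupffer cell receptor, rose by 2.11 ± 0.45 and fell by 1.93. The summed linear level of the 12 markers ran from 71.8 to 119.8 on standard diet, 138 to 387 on MCD diet, 191 to 293 on standard diet with agonist and 74.0 to 146 on MCD diet with agonist, in units of each array's 75th percentile. In whole liver fewer cells of a type and less RNA per cell cannot be told apart. Of 11 hepatocyte markers tested, 0 were called by limma with agonist on standard diet (1 at an unadjusted p under 0.05) and 1 rose on MCD diet, where median scaling gave 0 calls and quantile normalization 1 that rose and 2 that fell.

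Pde4b encodes a phosphodiesterase that breaks down cAMP. It read -0.23, -0.75, -0.67 and -0.66 on standard diet and 0.94, 0.63, 0.91 and 0.44 on MCD diet. Every MCD liver lay above every standard-diet liver, the groups being on 1 slide but in separate rows. Pde4b rose by 1.31 ± 0.41 (2.47-fold, limma adjusted p = 0.0199). Of its other tested probes, one gave 0.84 ± 0.41 (adjusted p = 0.134 over the probes) and one, from a separate transcript record, -0.17 ± 0.44 (adjusted p = 0.803). With the mean over the 3 probes the change was 0.66 (adjusted p = 0.174). In the value table it was -0.27 as named (adjusted p = 0.596) and 0.79 with placed columns (adjusted p = 0.0556). Of 12 macrophage markers 9 rose and 1 fell between the same groups, against 26.0% of all genes called. Their part in the Pde4b result was not tested.

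With agonist on MCD diet Pde4b read -0.60, -0.70, 0.68 and -1.02, and 3 of the 4 livers lay below all untreated ones. The change of -1.14 ± 0.41 missed the threshold (limma adjusted p = 0.063). It passed with the replicate number as a block (adjusted p = 0.0475), normexp correction (-0.95, adjusted p = 0.0309) and median scaling (-1.48, adjusted p = 0.0333). It also passed without treated replicate 3 (-1.50, adjusted p = 0.028) or any 1 of 3 other arrays. In the value table with placed columns it passed too (-0.91, adjusted p = 0.045). With columns as named that value stands for diet in agonist-treated livers. The other tested Pde4b probes did not fall: their means went from -0.45 to -0.22 and from -3.38 to -3.23, with overlap. After hepatectomy the 4 group means of the brightest probe lay between -0.14 and 0.14, less far apart than the SDs within groups of 0.358 to 0.765. The next probe, well above background on all 32 arrays, read lower on MCD than on standard diet without agonist there. Its means were -0.30 on standard and -1.40 on MCD diet, without overlap (lowest -0.65 against highest -0.82). This is a description without a p-value, between groups on separate slides. The brightest probe had means of -0.14 on standard and 0.14 on MCD diet in these groups. The dimmest tested probe had means of -2.66 and -3.51 in these groups, with overlap.

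Sik1 encodes a salt-inducible kinase that is itself a CREB target and phosphorylates CRTC2. It read -1.74, 0.29, -0.49 and -0.78 on standard diet and -0.19, 0.56, 0.17 and 1.05 on MCD diet, overlapping through replicate 2 of the former. With agonist it read -0.34, -0.60, -0.05 and -1.06 on standard diet and 0.89, 0.31, 2.30 and -0.20 on MCD diet, overlapping only through the last value. The diet changes were 1.08 ± 0.48 (limma adjusted p = 0.0962), 1.34 with agonist (adjusted p = 0.0581), 1.04 after hepatectomy (adjusted p = 0.165) and 0.66 after hepatectomy with agonist (adjusted p = 0.445). All were above 0 and none was called; the first was called with median scaling (1.44, adjusted p = 0.0276) and the second with normexp correction (1.52, adjusted p = 0.0233), in the value table with placed columns (1.51, adjusted p = 0.0463) or without MCD diet with agonist replicate 4 (1.68, adjusted p = 0.0245). After hepatectomy on MCD diet it read -0.14, 0.36, 0.65 and 0.77, close to MCD diet without surgery. With agonist on MCD diet the change after surgery was -1.08 ± 0.48 (limma adjusted p = 0.149). It was called with normexp correction (-1.44, adjusted p = 0.00995). On standard diet the means were -0.68 before and -0.63 after surgery, and with agonist -0.51 before and -0.92 after. Over the 32 arrays Sik1 had r = 0.74 with Per1, a clock gene that CREB also induces, which was higher on MCD diet by 1.90 ± 0.54 before surgery (adjusted p = 0.0104).

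The rest of the pathway was read from lists that leave the 9 genes out. Their counts for the agonist stand against 6.52% of all genes called on standard and 13.3% on MCD diet, and several lie at or below that share. Among 19 genes of receptor coupling, 3 rose and 1 fell with agonist on standard diet and 0 rose and 2 fell on MCD diet. Adcy7, an adenylyl cyclase found mainly in blood and immune cells, rose by 1.75 ± 0.43 on standard diet (adjusted p = 0.0166) and fell by 1.58 on MCD diet (adjusted p = 0.0165), and the agonist's effect on it differed by -3.32 between the diets (adjusted p = 0.00131). On standard diet the inhibitory G protein subunit Gnai3 rose by 0.85 ± 0.20 and the receptor kinase Grk2 fell by 1.16, where under median scaling no gene of this list fell. Adcy7 changed in the same direction as the called macrophage markers in both comparisons, and a link between them was not tested.

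Of 17 genes for protein kinase A subunits, their inhibitors and anchors, and EPAC, 0 were called by limma with agonist on standard diet (0 at an unadjusted p under 0.05) and 2 rose on MCD diet: Pkib, an inhibitor of the kinase, by 0.74, and the anchoring protein Akap7 by 0.96. Of 13 other phosphodiesterases 0 were called on standard diet (1 at an unadjusted p under 0.05) and 1, Pde1a, rose on MCD diet (0.79). Under median scaling the MCD counts were 0 that rose and 1 that fell for the former list and 0 calls for the latter. Pde4d, the sister gene of Pde4b, was higher on MCD than on standard diet in agonist-treated livers (1.45 ± 0.27, adjusted p = 0.000463).

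Of 19 other CREB and ATF factors, coactivators and salt-inducible kinases and their regulators, 0 rose and 1 fell with agonist on standard diet (Stk11, the kinase upstream of salt-inducible kinases, by 1.25), and 0 rose and 2 fell on MCD diet (Crebzf by 1.32 and the coactivator Ep300 by 1.06). Of 19 liver genes known to be induced through CREB and CRTC2, 1 rose and 1 fell on standard diet (Igfbp1 by 1.58 ± 0.42; Cited2 by 1.74) and 0 rose and 1 fell on MCD diet (Rgs2 by 1.94). The gluconeogenic genes were not among those called: with agonist Pck1 changed by -0.20 ± 0.34 on standard and 0.19 ± 0.34 on MCD diet, and G6pc by -0.29 ± 0.83 and -0.84 ± 0.83. The median changes of this list were -0.20 and 0.02, against -0.01 and 0.14 for all genes.

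The level of Creb3l3 itself was called in no comparison of the fit described above. Of 12 genes known to be induced through it, 4 rose and 1 fell on MCD diet before surgery, where 26.0% of all genes were called. After hepatectomy 7 rose and 0 fell on MCD diet, against 11.5% of all genes (median 1.05, against -0.04 for all genes). Fgf21, a fasting hormone, rose by 4.56 ± 0.90 and 7.06 ± 0.90 in these comparisons, and Cidec, a lipid droplet protein, by 4.21 and 5.53. With agonist 2 rose on standard diet, the serum protein gene Apcs by 2.50 ± 0.43 and Apoa4 by 1.85, and 1, Cidec, fell by 2.32 on MCD diet. For the agonist after hepatectomy limma called 0 of the 146 genes in the pathway, immediate early, clock and macrophage lists on either diet. Of all genes it called 0.00922% on standard and 0.406% on MCD diet, so 0 of 146 lies near that share. At an unadjusted p under 0.05 there were 3 on standard and 18 on MCD diet, against 2.57% and 13.8% of all genes.

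The 3 tested genes most like each member over the 32 arrays were found by Pearson's r, as a description. For Gcgr they were Ndufb5 (0.80), Mrpl2 (0.80) and Nme3 (0.79), and for Glp1r Cbx7 (0.73), Spaca4 (0.72) and Gnaz (0.71). For Crem they were Purg (0.85), Clock (0.82) and Lifr (0.81), and for Nr4a1 Cggbp1 (0.77), Zmynd15 (0.75) and Inppl1 (0.75). Creb1 was nearest to Cd59a, Prpf4 and Calr3 (each 0.80), Creb3l3 to Med4 (0.81), Abcb6 (0.73) and Fars2 (0.72), and Crtc2 to Kif2a (0.82), Prcd (0.79) and Kcnn2 (0.77). Sik1 was nearest to Neu1 (0.76), Inf2 (0.76) and Pfkfb2 (0.75), and Pde4b, with the lowest values, to Trp53inp1 (0.66), Vapa (0.63) and Mmd2 (0.62). Among the members themselves Gcgr had r = 0.63 with Creb1 and 0.62 with Crtc2.

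The members also differed in how tightly livers of a group lay together. The residual SD within groups was 0.288 for Crtc2, which exceeded that of 9.89% of all genes, and 0.325 for Gcgr (17.6%). It was 0.457 for Crem, near the middle of all genes, 0.503 for Creb3l3 (59.4%), 0.566 for Creb1 (69.6%) and 0.607 for Pde4b (74.8%). Glp1r and Sik1 reached 0.715 and 0.719 (84.8% and 85.2%). Among the members the livers of a group lay closest together for Crtc2 and Gcgr and farthest apart for Nr4a1.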

How the data were processed

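The authors hybridised Cy3-labelled liver RNA to Agilent arrays and deposited the scanner output, whose processed intensity is background-corrected by Feature Extraction 10.7.3.1, per the file headers; probe positions are mm9. The deposited value table holds log2 values whose centring is unknown (column medians 6.53 to 6.55 before and 7.05 to 7.06 after hepatectomy). The submitters' processing notes name limma.

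Here control spots and outlier spots (0.264%) were left out, log2 intensities were scaled to each array's 75th percentile, and spots of a probe were averaged. Of 55681 probes 30118 passed the filter, and the brightest probe gave the value of each of 21691 genes. One limma 3.58.1 model (R 4.3.3) with 8 group means was fitted over all 32 arrays and 16 contrasts, adjusted within each by Benjamini-Hochberg, and was tested on simulated data. All 9 genes are named, and of each list up to 4 called genes with the smallest adjusted p per contrast. The members and lists were chosen with earlier results of these data known. Gene names are those of the array design, updated through RefSeq tables where an accession or symbol matched. Arrays have no counts, so the number of livers limits the precision. Alternatives were normexp correction (offset 50), median and quantile scaling, no filter, a gene's mean over its probes, keeping outlier spots, fitting each contrast's groups alone, a replicate block, the value table and leaving out each array.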

Additional observations from a re-analysis of the deposited data

Results flagged for a closer look

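In MCD diet after hepatectomy, Creb1 in replicate 1 was the lowest array at -5.42, far from the nearest of the other 3 livers at -3.40. The probe was well above background on only 3 of 4 arrays of this group, so the size of the gap is uncertain. The gap was 0.892 of the group's range, above the 95% critical value for 4 samples. This was 1 of 72 combinations of member and group, and chance alone gives about 1 in 20.

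The agonist's effect before surgery differed between the diets for Nr4a1 (-3.79, adjusted p = 0.0083), for the second Crem probe (-1.72, adjusted p = 0.0313) and for the dimmer Creb1 probe (-2.52, adjusted p = 0.0035). The effect on that Creb1 probe also differed before and after hepatectomy on MCD diet (2.43, adjusted p = 0.0226). These are tests of the difference itself by limma. The Creb1 probe was well above background on only 1 of 4 arrays in standard diet, in standard diet with agonist and in MCD diet with agonist, so its sizes are uncertain. The brighter probes of Crem and Creb1 were not called in the same tests, though median scaling (-1.68, adjusted p = 0.0236) and the mean over probes (-1.44, adjusted p = 0.0308) called Crem for the difference between the diets.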

How the results depend on the processing

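Calls of members were counted over 4 comparisons each. For the agonist 2 became 7 with normexp correction, 6 with the value table as deposited, 4 with its columns placed at the arrays they match (a setting chosen after seeing the data) and 1 to 4 with 1 array left out. For diet 3 became 5 with normexp, 5 with only the groups compared, 6 with placed columns and 3 to 5 with 1 array left out. For hepatectomy 3 became 7 with normexp and 2 to 3 with 1 array left out. For the differences between effects 1 became 4 with normexp, 3 with median scaling, 2 with the mean over probes, 0 with the value table either way and 1 to 3 with 1 array left out. The cause was not tested.

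Signs turned with the table as deposited for Gcgr (diet before surgery, 1.10), Crem (agonist on standard diet -0.76, agonist on MCD diet -1.71, diet 1.07, diet with agonist 0.12) and Pde4b (diet, -0.27), by the exchange of columns. They turned with normexp for Creb1 (0.44 after hepatectomy on MCD diet with agonist, 0.79 for the agonist's effect before and after hepatectomy on MCD diet), where the other Creb1 probe is the brighter one. The value table was not fitted for hepatectomy.

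With the replicate block the counts were 3 for the agonist, 3 for diet, 4 for hepatectomy and 1 for differences between effects: Pde4b and Nr4a1 gained the calls given above and none was lost. Same-numbered arrays correlated at -0.21 to 0.44, so the numbers were not taken as pairs; all 4 numbers fitted best with their own in 2 of 12 comparisons.

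All-gene counts moved by over 1.5 times as follows. With normexp they were 6769 (agonist, MCD), 0 and 154 (agonist after hepatectomy, standard and MCD diet), 1921 (diet with agonist), 4583, 1285, 4565 and 8280 (hepatectomy on standard diet, MCD diet, and each with agonist), and 0, 95 and 4328 (differences after hepatectomy). Without a filter they were 812, 5404, 1 and 22 (agonist), 5363 (hepatectomy, MCD with agonist), and 0, 10 and 2574 (differences). With only the groups compared they were 267 (agonist, standard diet), 1248 and 1557 (diet with agonist, diet after hepatectomy), 1061 and 983 (hepatectomy on standard diet and on MCD diet with agonist) and 8 (agonist by hepatectomy, standard diet). With the table as deposited they were 4218, 1647, 3027 and 1974 (agonist), 1210, 1 and 42 (diet before, after, and after with agonist) and 1392 (difference before surgery), and with placed columns 42 (agonist after hepatectomy, MCD), 1647 and 1392. The counts of 2 and 1 after hepatectomy (agonist on standard diet, diet by agonist) became 1 and 0 in several settings. Median and quantile scaling gave 115 and 140 for the agonist by hepatectomy on MCD diet. With 1 array left out, calls for the agonist before surgery ran from 494 to 1672 on standard and 1470 to 3235 on MCD diet. Median scaling moved the share of called genes that were higher from 50.8% to 76.5% and from 67.0% to 16.9% for the agonist on standard and MCD diet, and from 41.0% to 78.3% for diet.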
